A study of Mus musculus with 6 samples.

Results

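The NRF2 antioxidant response genes described here are 10 named genes, taken by symbol from the 55487 genes of the table: Nfe2l2, Keap1, Nqo1, Hmox1, Srxn1, Txnrd1, Osgin1, G6pdx, Me1 and Prdx1. Their mRNA was measured by polyA RNA sequencing in B16F10, a mouse melanoma cell line. Cells infected with a control shRNA (shCtr, genotype label WT, n = 3) were set against cells infected with shRNA OSGEP#2 (shOSGEP, genotype label KD OSGEP, n = 3). OSGEP is the catalytic part of KEOPS, a complex that adds t6A to tRNAs. Within each group the RNA came from 3 independent infections. The knockdown rests on 1 hairpin, and a value that separates the groups cannot be told apart from an effect of that hairpin. No oxidant was named for either group. The study's general methods describe lentiviral infection followed by selection with puromycin, so the values describe cells after that handling.

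NRF2, encoded by Nfe2l2, is a transcription factor that switches on genes for detoxification, NADPH supply and the repair of oxidised proteins. In unstressed cells KEAP1 holds NRF2 and hands it to a CUL3 ubiquitin ligase for destruction, and oxidants or electrophiles that modify KEAP1 let NRF2 accumulate. NRF2 then pairs with a small MAF protein and binds the antioxidant response element (ARE) near its targets, where the repressor BACH1 can take its place. NRF2 is controlled largely as a protein, so its mRNA is a measure of supply and not of activity.

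The core of the ARE was looked for near the start sites of the members, because it is the DNA sequence through which NRF2 acts on its targets. The letters TGACNNNGC were searched on both strands of the RefSeq promoter windows of GRCm38.p6, which run from 250 bases before a start site to 50 bases from it. The core was found in 12.4% of all 32851 windows, and 14% of the 27025 genes had a window that held it. Among the members, 9 had a window, 6 of these 9 genes held a match, and the matches lay in 6 of their 12 windows. The 6 matches are printed from 5′ to 3′ on the strand that reads TGAC first, with the core in capitals, because they let the shared letters be compared. Positions are counted from the RefSeq start site of the window, which is 0.
Nfe2l2: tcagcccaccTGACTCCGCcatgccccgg (chr2:75704885-75704913, minus strand, core from -240 to -232)
Srxn1: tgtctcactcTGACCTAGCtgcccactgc (chr2:152105542-152105570, minus strand, core from 28 to 36)
Txnrd1: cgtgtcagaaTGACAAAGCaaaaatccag (chr10:82859104-82859132, minus strand, core from -92 to -84)
G6pdx: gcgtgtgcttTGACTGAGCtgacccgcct (chrX:74428919-74428947, plus strand, core from -57 to -49)
Me1: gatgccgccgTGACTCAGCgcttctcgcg (chr9:86695902-86695930, minus strand, core from -6 to 2)
Prdx1: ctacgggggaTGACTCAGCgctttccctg (chr4:116685456-116685484, minus strand, core from -133 to -125)

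The cores of Me1 and Prdx1 had the same letters and contained the AP-1 motif TGANTCA. That motif lay anywhere in a window of 4 of the 9 members and of 8.97% of all genes. Keap1, Nqo1 and Osgin1 had a window without a match, and Hmox1 had no entry. Elements outside the windows were not searched for. Matching letters in a window are a description and do not show binding. Of 38 other NRF2 target genes, 31 had a window and 8 of these held a core.

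Depth ranged from 18915587 to 29487384 counts per library. The targeted gene, Osgep, stood at 20.6, 58.6 and 21.8 CPM (counts per library size, with TMM scaling) in shCtr replicates 1, 2 and 3, the order used throughout. The shOSGEP libraries held 4.28, 0.542 and 5.52 CPM, with no overlap (Log2FC = -3.29, SE 0.876, unadjusted p = 0.00524, adjusted p = 1). The exact permutation p was 0.1, the smallest that 3 libraries against 3 can give. shCtr replicate 2 stood apart from the other libraries. Its median deviation from the gene mean was -2.43 on the log2 scale for the 659 genes with a transcript GC content under 40%, and 1.16 for the 579 genes over 60%. All 7 melanocyte markers were detected, and their summed level was 17000 to 29600 CPM in shCtr and 3550 to 18100 CPM in shOSGEP, with shOSGEP replicate 2 the lowest. Of the 7 leukocyte markers, Ptprc, Cd3e, Itgam and Adgre1 were at 0 in every library, and the list summed to 1.75 to 3.18 CPM. Of the 5 fibroblast and endothelial markers, Dcn and Cdh5 were at 0, and the list summed to 0.639 to 4.42 CPM.

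The comparison asked whether loss of OSGEP was accompanied by a shift of this response at the mRNA level. None of the tested members passed the test over all genes, and their values shared no direction. Hmox1 had the largest value, being 1.97 to 3.97 times as high in shOSGEP as in the same-numbered shCtr library. Osgin1, G6pdx and Keap1 had values below 0 that lay between -0.10 and -0.06 without the libraries numbered 2, and Nfe2l2, Srxn1, Txnrd1, Me1 and Prdx1 lay within 0.15 of 0 on the log2 scale. Nqo1 was at or near the detection floor in all 6 libraries. In bulk RNA, fewer cells expressing a gene and less RNA of it per cell cannot be told apart.

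Of the 10 members, 9 passed the filter on low counts and were tested with edgeR's quasi-likelihood test, which adjusted p over 12669 genes. None of the 9 had an adjusted p under 0.05, the same as over all genes tested, where 0% did. None had an unadjusted p under 0.05. DESeq2 and limma-voom also gave 0 members an adjusted p under 0.05, while calling 14 and 3 genes of the whole table. The threshold of size, an absolute Log2FC above 0.5 together with an unadjusted p under 0.05, was passed by 0 of 9 members and by 2.02% of all genes tested. DESeq2 and limma-voom each put 1 member past it, which was Hmox1, beside 2.92% and 4.42% of all genes tested. Groups did not overlap for 0 of 9 members, against 6.36% of all genes. The fitted Log2FC was above 0 for 4 of 9 members, or 44.4%, against 47.3% of all genes, and for 6 of 9 with upper-quartile scaling. The median Log2FC of the 9 was -0.02 and that of all genes tested was -0.03, and with upper-quartile scaling these were 0.09 and 0.07.

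**Figure D1:**
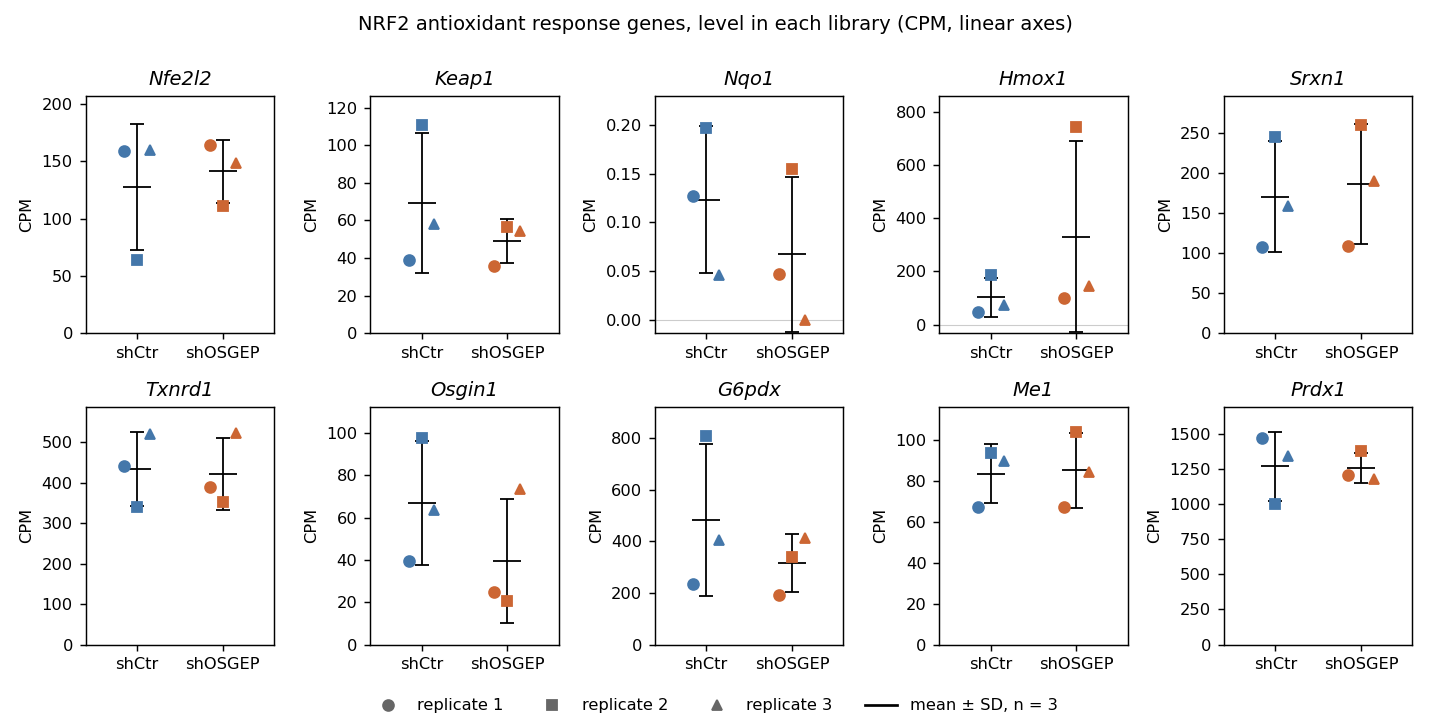
Level of each of the 10 NRF2 antioxidant response genes in CPM on linear axes, 1 panel a gene, with a point for each library (circle, square and triangle for replicates 1, 2 and 3) and the mean ± SD of 3 libraries per group. In the Hmox1 panel shOSGEP replicate 2, at 743 CPM, stands far above the other 5 libraries, and the groups overlap in all 10 panels.

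The regulators of the response were examined first. Nfe2l2 (ENSMUSG00000015839, chr2:75675513-75704641, minus strand, GRCm38) measured 159, 64.3 and 160 CPM in shCtr against 164, 111 and 149 CPM in shOSGEP. Replicate 2 was the lowest library of each group, and the groups overlapped. The means were 128 ± 54.8 CPM in shCtr and 141 ± 27.5 CPM in shOSGEP (SD, n = 3), with a Log2FC of 0.15 (SE 0.464, unadjusted p = 0.757, adjusted p = 1). The 95% interval of the Log2FC ran from -0.92 to 1.21, and differences within these bounds remain compatible with these libraries.

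Keap1 (ENSMUSG00000003308, chr9:21229730-21239361, minus strand), which encodes the NRF2 inhibitor, measured 39.1, 111 and 58.0 CPM in shCtr against 35.6, 56.7 and 54.5 CPM in shOSGEP. Every shOSGEP library was below the shCtr library of its number, a pattern seen in all 3 same-numbered comparisons for 17.2% of all genes tested. The log2 ratios within numbers were -0.14, -0.97 and -0.09, so that replicate 2 differed more than the other two. The Log2FC was -0.51 (SE 0.496, unadjusted p = 0.337, adjusted p = 1), and without shCtr replicate 2 it was 0.01. Keap1 transcripts have a GC content of 58.0%, and the trend with GC and length in shCtr replicate 2 gave 0.67 on the log2 scale for this gene.

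Among the direct targets, Hmox1 (ENSMUSG00000005413, chr8:75093621-75100589, plus strand) had the largest difference. It encodes heme oxygenase 1, which breaks down heme to biliverdin, iron and carbon monoxide, and it is a target shared by NRF2 and BACH1. Hmox1 measured 46.0, 187 and 74.7 CPM in shCtr against 101, 743 and 147 CPM in shOSGEP, from 1082, 3803 and 1619 counts and from 2177, 19167 and 3455 counts. Replicate 2 was the highest library of each group, and the groups overlapped only because shCtr replicate 2 exceeded shOSGEP replicates 1 and 3.

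Within replicate numbers Hmox1 was 2.2, 3.97 and 1.97 times as high in shOSGEP. The mean was 103 ± 74.5 CPM in shCtr and 330 ± 358 CPM in shOSGEP (SD, n = 3). The Log2FC was 1.69 (SE 0.856, unadjusted p = 0.0828, adjusted p = 1), with a 95% interval from -0.27 to 3.65, or 0.827-fold to 12.5-fold. The two-sided exact permutation p was 0.3. With the replicate number as a block, the replicate block fit gave a Log2FC of 1.37 (SE 0.33, unadjusted p = 0.00727, adjusted p = 0.741), past the threshold of size but not the adjusted one.

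The size of the Hmox1 difference depended on replicate 2. Without shOSGEP replicate 2 the Log2FC was 0.31 (unadjusted p = 0.66), and without shCtr replicate 2 it was 2.45 (unadjusted p = 0.025). Without shOSGEP replicate 1 it was 2.12 (unadjusted p = 0.0301). With both libraries numbered 2 left out, the ratio of mean CPM was 2.05 and the Log2FC was 1.04 (SE 0.371, unadjusted p = 0.0316, adjusted p = 1). The same shOSGEP replicate 2 held the lowest summed melanocyte markers, 3550 CPM, and the part of that in the Hmox1 value was not tested. Offsets for GC content and transcript length left a Log2FC of 1.78 (unadjusted p = 0.0172). Over 18 alternative settings the direction stayed above 0, an unadjusted p under 0.05 was reached in 10, and the adjusted p ran from 0.533 to 1.

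Nqo1 (ENSMUSG00000003849, chr8:107388225-107403206, minus strand) encodes NAD(P)H quinone dehydrogenase 1, widely used as a marker of NRF2 activity. It had 3, 4 and 1 counts in shCtr and 1, 4 and 0 counts in shOSGEP. Its highest level was 0.197 CPM, and in every library it lay at or close to the floor of 3 counts, equal to 0.116 to 0.147 CPM. It did not pass the filter on low counts, no fold is given for counts this low, and a difference was not detectable at this depth.

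Srxn1 (ENSMUSG00000032802, chr2:152105516-152111376, plus strand) encodes sulfiredoxin, which restores over-oxidised peroxiredoxins. It measured 107, 244 and 159 CPM in shCtr against 109, 259 and 190 CPM in shOSGEP. The order of the 3 numbers was the same in both groups, and the difference between numbers was far larger than that within them. All 3 shOSGEP libraries were above the shCtr library of their number, by 0.03, 0.08 and 0.26 on the log2 scale, as was the case for 17.6% of all genes tested. The members with that pattern were Hmox1 and Srxn1. The Log2FC of Srxn1 was 0.13 (SE 0.491, unadjusted p = 0.798).

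Txnrd1 (ENSMUSG00000020250, chr10:82833951-82897712, plus strand), the cytosolic thioredoxin reductase, measured 441, 339 and 520 CPM in shCtr against 388, 353 and 523 CPM in shOSGEP. Prdx1 (ENSMUSG00000028691, chr4:116685544-116700822, plus strand), a peroxiredoxin that reduces hydrogen peroxide with electrons from thioredoxin, measured 1470, 998 and 1340 CPM in shCtr against 1210, 1380 and 1180 CPM in shOSGEP. Both genes varied little, with the highest library 1.54 and 1.47 times the lowest, and the groups overlapped in each. The Log2FC was -0.04 (SE 0.406, 95% interval from -0.97 to 0.89) for Txnrd1 and -0.02 (SE 0.425, 95% interval from -0.99 to 0.96) for Prdx1. shCtr replicate 2 was the lowest library for both, and for Prdx1, with a transcript GC content of 42.3%, the trend with GC and length in that library gave -1.38. With offsets for GC and length the Log2FC of Prdx1 was -0.61. Of the 31-base words of Prdx1 transcripts, 15.2% also occur in other genes, so its counts may hold an uncertain part from copies, although the copy that shared most words, Gm21399, had only 2 to 10 counts.

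**Figure D2:**
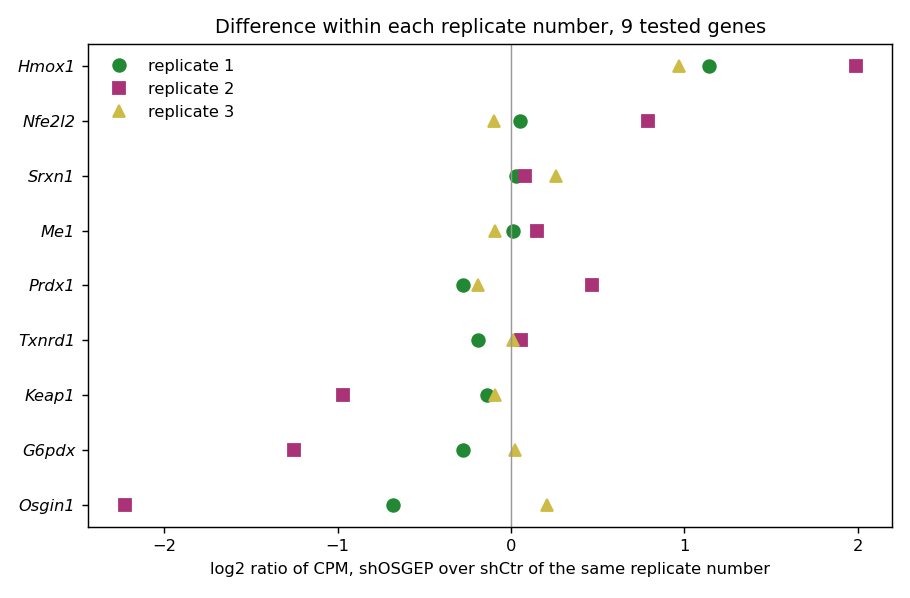
Log2 ratio of CPM, shOSGEP over the shCtr library of the same replicate number, for the 9 tested members, with circle, square and triangle for replicates 1, 2 and 3 and a line at 0. Hmox1 lies at 0.97 or above in all 3 comparisons, and for Keap1, G6pdx and Osgin1 the square of replicate 2 lies far to the left of the other points.

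A pair of members supply NADPH, the electron source of the thioredoxin and glutathione systems. G6pdx (ENSMUSG00000031400, chrX:74409483-74429194, minus strand) encodes glucose-6-phosphate dehydrogenase, the entry enzyme of the pentose phosphate pathway. It measured 236, 808 and 407 CPM in shCtr against 194, 340 and 413 CPM in shOSGEP. The groups overlapped, and shCtr replicate 2 lay far above the other 5 libraries. The Log2FC was -0.62 (SE 0.558, unadjusted p = 0.3, adjusted p = 1), and without shCtr replicate 2 it was -0.03. G6pdx overlaps Ikbkg on the opposite strand, which had 873 to 1554 counts, and the library kit was not stated to keep the strand. Its near copy G6pd2, with which it shares most of its repeated words, had 0 counts in every library.

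Me1 (ENSMUSG00000032418, chr9:86581371-86695953, minus strand) encodes the cytosolic malic enzyme, which makes NADPH from malate. It measured 67.3, 93.9 and 89.9 CPM in shCtr against 67.6, 104 and 84.3 CPM in shOSGEP. The groups overlapped over nearly their whole range. The Log2FC was 0.03 (SE 0.387, unadjusted p = 0.942), with a 95% interval from -0.86 to 0.92. Offsets for GC and length turned the sign, to -0.49. The trend with GC and length in shCtr replicate 2 gave -1.02 for Me1, yet that library was its highest in shCtr. Over 18 settings the unadjusted p of Me1 ran from 0.257 to 0.985. Of its 31-base words, 30% also occur in other genes, most in Gm7049, which had 1 to 3 counts.

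Osgin1 (ENSMUSG00000074063, chr8:119434124-119446256, plus strand), known as oxidative stress induced growth inhibitor 1, measured 39.5, 97.8 and 63.5 CPM in shCtr against 24.6, 20.8 and 73.5 CPM in shOSGEP. shOSGEP replicates 1 and 2 were the lowest of the 6 libraries, and shOSGEP replicate 3 lay between the higher shCtr libraries. The log2 ratios within numbers were -0.68, -2.23 and 0.21. The Log2FC was -0.76 (SE 0.607, unadjusted p = 0.248, adjusted p = 1). Without both libraries numbered 2 it was -0.06, without both numbered 3 it was -1.6, and without shOSGEP replicate 3 it was -1.57 with the lowest unadjusted p over 18 settings, 0.0356. Osgin1 transcripts have the highest GC content of the members, and the trend in shCtr replicate 2 gave 1.08 for it.

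**Figure D3:**
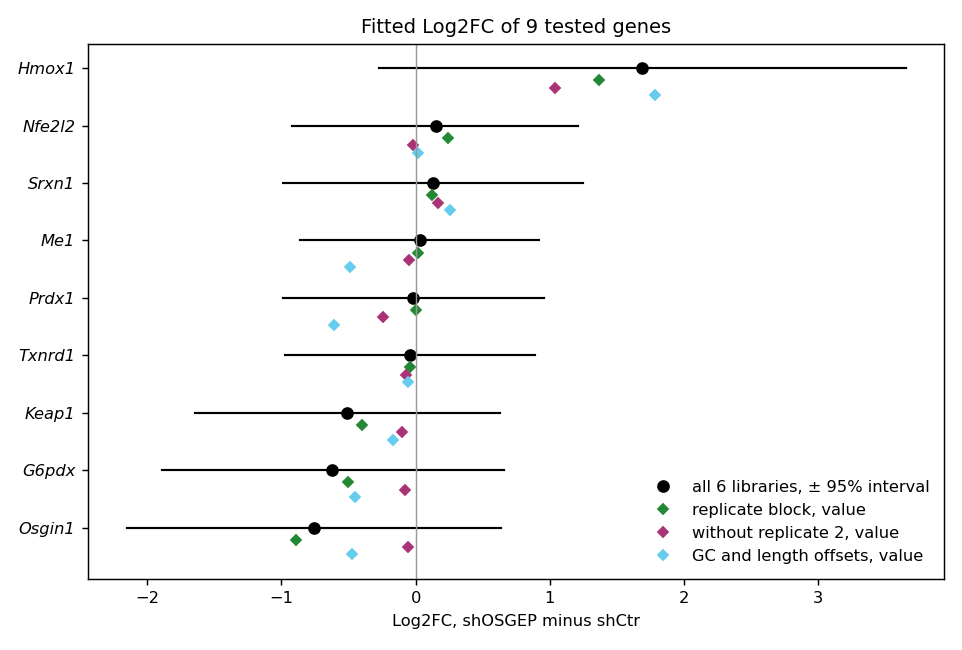
Fitted Log2FC (shOSGEP minus shCtr) of the 9 tested members with all 6 libraries and the 95% interval, beside the values with a replicate block, without replicate 2 and with GC and length offsets. All 9 intervals cross 0, the 4 values of Hmox1 lie between 1.04 and 1.78, and those of Keap1, G6pdx and Osgin1 move toward 0 without replicate 2.

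The members also differed in level. Expressed per kilobase of transcript, so that genes can be set beside each other, Prdx1 was highest in shCtr at 553 ± 106 CPM per kb. G6pdx followed at 182 ± 111, Txnrd1 at 120 ± 25.2, Hmox1 at 65.3 ± 47.5, Srxn1 at 60.4 ± 24.6 and Nfe2l2 at 51.6 ± 22.1 CPM per kb. Osgin1 was at 33.4 ± 14.6, Me1 at 25.4 ± 4.36, Keap1 at 19.2 ± 10.4 and Nqo1 at 0.0795 ± 0.0485 CPM per kb (SD, n = 3). In this order, of the neighbouring pairs, only Prdx1 and Nqo1 were set apart by more than the SDs, and for each other pair the means ± SD overlapped. In shOSGEP the order was the same except for Hmox1 and for Osgin1 and Me1. Hmox1 stood after Prdx1 at 210 ± 228 CPM per kb, and Me1 at 25.9 ± 5.58 before Osgin1 at 19.8 ± 14.6. Prdx1 was again first, at 547 ± 47.6 CPM per kb. Here Prdx1, Nqo1 and the step from Nfe2l2, at 57.1 ± 11.1, to Me1 were separated by more than the SDs, and the other neighbouring pairs overlapped.

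**Figure D4:**
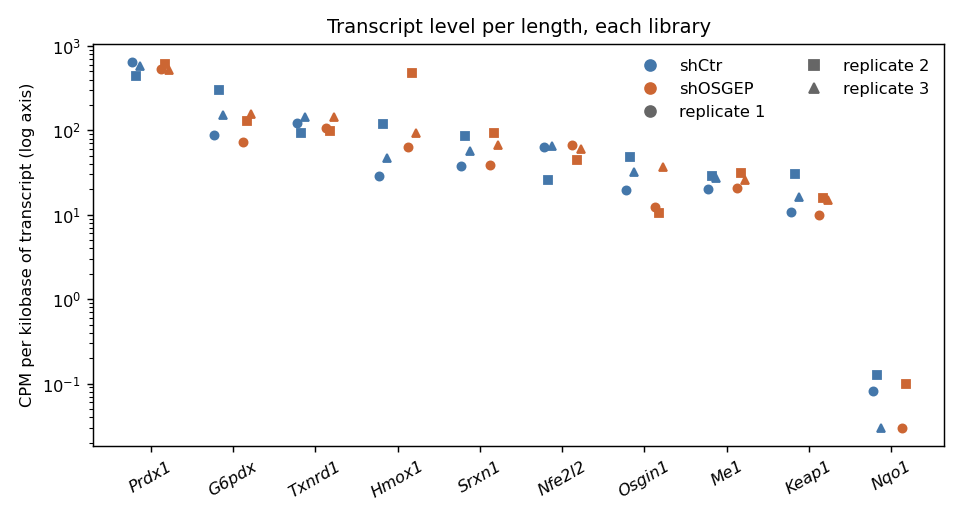
Level of the 10 members in each library in CPM per kilobase of transcript on a log axis, ordered by the shCtr mean, with blue for shCtr, orange for shOSGEP and a marker for each replicate number; Nqo1 in shOSGEP replicate 3 was at 0 and cannot be drawn. Prdx1 is highest in all 6 libraries, Nqo1 lies orders of magnitude below the rest, and shOSGEP replicate 2 of Hmox1 comes nearest to Prdx1.

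Members were compared by their pattern over the 6 libraries, as the root-mean-square difference of log2 CPM centred on each gene's mean. No member was close to Hmox1, the nearest being Srxn1 at 0.896. Of all genes tested, Tgm2 (0.077), Osr2 (0.158) and Hspb6 (0.201) were nearest to Hmox1. Keap1 and G6pdx were nearest to each other at 0.173, and both were highest in shCtr replicate 2. Txnrd1 and Prdx1 lay at 0.255, and Srxn1 and Me1 at 0.292.

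The proteins that act with NRF2 and KEAP1 were examined next, as a list of 13 regulators and partners, all tested. Of these, 6 had a Log2FC above 0 and 7 below, the median was -0.09, and 0 passed the threshold of size or the adjusted p. Bach1, the repressor that competes at Hmox1, measured 37.9, 4.92 and 31.8 CPM in shCtr against 31.1, 7.05 and 23.5 CPM in shOSGEP. It was low in replicate 2 of both groups, the libraries in which Hmox1 was highest, and its Log2FC was -0.27 (unadjusted p = 0.739). In the same list Cul3, Gsk3b and Bach2 were also lowest in replicate 2 of each group, while Maff, Mafk, Sqstm1, Rbx1 and Btrc were highest there. The part of Bach1 in the Hmox1 value was not tested. Mafg, a small MAF partner of NRF2, was level at 114, 114 and 113 CPM in shCtr against 119, 86.9 and 106 CPM in shOSGEP. Bach1, Mafg and the genes set beside Bach1 were named after their values were seen. Pgam5, a mitochondrial phosphatase that binds KEAP1, measured 34.4, 63.4 and 38.8 CPM in shCtr and 24.8, 20.2 and 31.9 CPM in shOSGEP. It was the 1 regulator whose groups did not overlap, or 7.69% of the 13, against 6.36% of all genes tested. Its Log2FC was -0.83 (SE 0.435, unadjusted p = 0.0923), and -0.37 without replicate 2. The other regulators with the smallest p were Dpp3 at -0.80 (unadjusted p = 0.224) and Rbx1 at -0.48 (unadjusted p = 0.384), which were 0.04 and 0.11 without shCtr replicate 2.

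A list of 38 other NRF2 targets, with genes for glutathione synthesis, conjugation, export and the pentose phosphate pathway, had 30 tested members. Of the 30, 11 had a Log2FC above 0 and 19 below, with a median of -0.13, and the split was 15 and 15 with upper-quartile scaling. Without shCtr replicate 2 it was 16 above and 14 below with a median of 0.12, beside 0 for all genes tested. The direction of this list therefore changed with the setting. The adjusted p was 1 for all 30. The threshold of size was passed by 1 of the 30, or 3.33%, against 2.02% of all genes tested. Groups did not overlap for 1, or 3.33%, against 6.36% of all genes tested. Adh7, which encodes a retinol-oxidising alcohol dehydrogenase, was past the threshold of size, at 7.99, 14.9 and 17.5 CPM in shCtr and 26.3, 63.1 and 29.2 CPM in shOSGEP. Its groups did not overlap, and its Log2FC was 1.55 (SE 0.535, unadjusted p = 0.019). With offsets for GC and length it was 0.68 (unadjusted p = 0.436), without shOSGEP replicate 2 it was 1.06 (unadjusted p = 0.0709), and without shCtr replicate 1 it was 1.29 (unadjusted p = 0.065). It was past the unadjusted threshold in 13 of 18 settings. Adh7 overlaps 0610031O16Rik on the opposite strand. Cbr3, a carbonyl reductase, measured 27.9, 130 and 43.8 CPM in shCtr against 15.7, 17.9 and 40.4 CPM in shOSGEP. It was lower in all 3 numbers, with a Log2FC of -1.45 (unadjusted p = 0.0642, and under 0.05 in 6 of 18 settings) that was -0.35 without replicate 2. Abcc2, an export pump for glutathione conjugates, had a Log2FC of -1.11 (unadjusted p = 0.123), which was -0.45 without shCtr replicate 2 and -2.33 with offsets for GC and length. In other settings 0 to 5 genes of this list passed the threshold of size. Besides Adh7 and Cbr3 these were Slc7a11 and Idh1, whose Log2FC with all 6 libraries was 0.98 and -0.34. With no filter Aldh1a1, Gpx2 and Gsta4 also passed it. The genes added here were named after their values were seen.

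**Figure D5:**
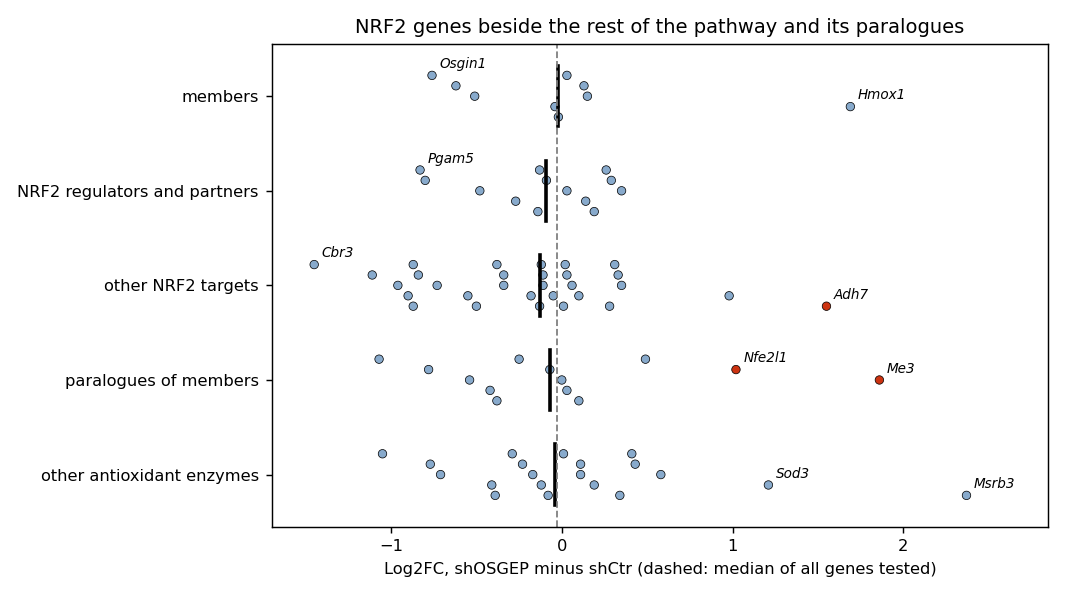
Log2FC (shOSGEP minus shCtr) of every tested gene in the members and in 4 related lists, with black bars for the list medians, a dashed line for the median of all genes tested and red points for genes past the threshold of size. The medians lie between -0.13 and -0.02, beside -0.03 for all genes, and the 3 red points are Adh7, Nfe2l1 and Me3.

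Close relatives of the members were listed because they share function and can share reads. Of 16 paralogues 13 were tested, 6 with a Log2FC above 0 and 7 below, with a median of -0.07. The threshold of size was passed by 2 of the 13, Nfe2l1 and Me3, or 15.4%, against 2.02% of all genes tested. Groups did not overlap for the same 2 genes, or 15.4%, against 6.36% of all genes tested. Nfe2l1, which encodes NRF1, a relative of NRF2 that drives proteasome genes, measured 212, 207 and 267 CPM in shCtr against 400, 647 and 348 CPM in shOSGEP. Its groups did not overlap and its Log2FC was 1.02 (SE 0.422, unadjusted p = 0.0405, adjusted p = 1), against 0.15 for Nfe2l2, and the difference between these genes was not tested. Leaving out any 1 library put its unadjusted p between 0.0529 and 0.117, and without both libraries numbered 2 its Log2FC was 0.64 (unadjusted p = 0.0776). Me3, the mitochondrial NADP malic enzyme, measured 5.06, 5.21 and 5.99 CPM in shCtr against 7.58, 43.7 and 7.59 CPM in shOSGEP. Its Log2FC of 1.86 (SE 0.754, unadjusted p = 0.0382) rested on shOSGEP replicate 2, without which it was 0.50 (unadjusted p = 0.289). Without any 1 of the shCtr libraries it was 1.81 to 1.94, with unadjusted p between 0.059 and 0.0785, and with the replicate block it was 1.29 (unadjusted p = 0.0973). Hmox2, the constitutive heme oxygenase, measured 58.4, 155 and 79.3 CPM in shCtr against 46.5, 100 and 72.6 CPM in shOSGEP, below shCtr in each number, where Hmox1 was above it in each. Hmox2 was named after its values were seen. Prdx2 had a Log2FC of -1.07 (unadjusted p = 0.117), and -0.21 without shCtr replicate 2.

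Antioxidant enzymes outside the usual NRF2 targets, 22 in all with 20 tested, had 10 values above 0 and 10 below, and a median of -0.04, and with upper-quartile scaling 12 and 8. Without shCtr replicate 2 the split was 16 and 4 with a median of 0.30, and without shOSGEP replicate 2 it was 7 and 13 with a median of -0.39. None passed the threshold of size or the adjusted p with all 6 libraries, and 0 to 3 passed the threshold of size in other settings, namely Sod3, Msrb3, Sesn2 and Msra. Groups did not overlap for Sod3 and Msrb3, or 10% of the 20 tested, against 6.36% of all genes tested. Sod3, the extracellular superoxide dismutase, measured 6.42, 19.3 and 11.1 CPM in shCtr against 20.8, 42.9 and 21.6 CPM in shOSGEP. Its Log2FC was 1.21 (SE 0.559, unadjusted p = 0.0607), and 1.27 (unadjusted p = 0.00862) with the replicate block and under an unadjusted 0.05 in 9 of 18 settings. Msrb3, a methionine sulfoxide reductase, measured 6.97, 0.0492 and 5.35 CPM in shCtr against 20.2, 33.4 and 10.5 CPM in shOSGEP. Its Log2FC was 2.37 (SE 1.17, unadjusted p = 0.0752) and 1.31 without replicate 2, and its shCtr replicate 2 lay below the floor of 3 counts. It was under an unadjusted 0.05 in 7 of 18 settings, although the setting of at least 10 counts in every library did not test it. Msra, another methionine sulfoxide reductase, had a Log2FC of -1.05 (unadjusted p = 0.105), and -0.53 without shCtr replicate 2. Sesn2, a stress-induced sestrin named after its values were seen, measured 46.2, 84.1 and 50.3 CPM in shCtr against 70.4, 115 and 84.2 CPM in shOSGEP. It was higher in all 3 numbers with overlapping groups, and its Log2FC was 0.58 (SE 0.429, unadjusted p = 0.215).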

How the data were processed

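PolyA RNA of 3 shCtr and 3 shOSGEP infections was prepared with an Illumina TruSeq kit that was not stated to keep the strand. Per the submitters' processing notes, reads were processed with STAR 2.6.1d and Salmon 1.4.0 on GRCm38, with edgeR 3.14 and DESeq2 1.30 also named; the annotation release used for these counts is not given in the sources used here. The deposited values were estimated counts per gene, which the authors gave as whole numbers without normalization. Salmon shares reads that fit several transcripts between them, so copies of a gene carry uncertain values. Of 55487 genes, 33666 had no count.

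Groups and replicate numbers came from the labels. Genes were kept by filterByExpr (minimum count 10, minimum total 15), scaled by TMM, and tested with edgeR 4.0.16's quasi-likelihood F-test in R 4.3.3 with no block term. The test was two-sided and p was adjusted over 12669 genes by the Benjamini-Hochberg method. CPM are counts scaled to the TMM-adjusted library size. SEs were the Log2FC divided by the square root of F. Exact permutation tests compared mean log2 CPM. The threshold of size follows the gene selection in the study. Alternatives were DESeq2 1.42.0, limma-voom (limma 3.58.1) with sample quality weights, other scalings and filters, a replicate block, offsets for GC and length (splines with 5 degrees of freedom), and leaving out libraries. The edgeR, DESeq2 and limma-voom fits were also run on simulated counts with known differences, all larger than any fitted for the members with all 6 libraries. The simulated counts held no outlying library, GC trend or replicate effect. They therefore do not show how small a difference could be detected here.

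Gene positions, GC and transcript length came from GENCODE M21, which held 99.5% of the identifiers. The members, lists and tests were chosen with earlier results of these data known. Named were Osgep, the members, and from each other list the genes past the threshold of size and up to 3 with the smallest p, as well as the 3 genes most like a member. The floor of 3 counts covers counting error only, since reads carried no molecular identifiers.

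Deviations of same-numbered libraries from their group means correlated across genes at 0.811, 0.557 and 0.196 for numbers 1, 2 and 3, all above the limit of 0.1, and at up to 0.491 between different numbers. The 0.491 was between shCtr replicate 3 and shOSGEP replicate 1, and it lay above the 0.196 of number 3 itself. The unlike numbers shCtr replicate 2 and shOSGEP replicate 3, at 0.138, also passed the limit. Passing it therefore does not settle whether the numbers pair the libraries. The library names share an ending across the groups within each number, but the labels do not say what a number marks. The tests, SEs and intervals are unpaired unless a replicate block is named, since the study's methods name no block.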

Additional observations from a re-analysis of the deposited data

How the results depend on the processing

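In all 18 alternative settings 0 members had an adjusted p under 0.05. The number of members past the threshold of size, 0 as reported, was 1 with DESeq2, limma-voom, no filter, the replicate block and the GC and length offsets with or without it, and that member was Hmox1 each time. The share of all genes past it, 2.02% as reported, was then 2.92%, 4.42%, 2.75%, 2.94%, and 6.86% or 5.46%. With libraries left out the number of members was 0 to 1, beside 0.516% to 3.5% of all genes tested. The member was Hmox1 except without shOSGEP replicate 3, when it was Osgin1. The number of members with a Log2FC above 0, 4 as reported, was 2 with limma-voom and 2 to 6 with libraries left out. Their median was -0.16 with limma-voom, -0.17 with GC and length offsets and -0.17 with these and the block, and -0.12 to 0.08 with libraries left out. The replicate block left a median of 0.00 and 4 values above 0. Hmox1, Osgin1 and G6pdx kept their sign in every setting. Values near 0 turned sign as follows: Nfe2l2 -0.07 and Me1 -0.11 with limma-voom; Txnrd1 0.06 and Prdx1 0.09 with upper-quartile scaling, which moved the median of all genes to 0.07; Prdx1 0.02 with at least 10 counts in every library; and Me1 -0.49 with the offsets and -0.33 with the offsets and the block. With libraries left out, Srxn1 ran from -0.16 to 0.48, Me1 from -0.12 to 0.17, Prdx1 from -0.24 to 0.13, Nfe2l2 from -0.17 to 0.35, Keap1 from -0.79 to 0.01 and Txnrd1 from -0.23 to 0.12. The cause of these turns was not tested. Depth limits what can be said of Nqo1, with 0 to 4 counts per library. The biological coefficient of variation over all genes was 0.566.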
